A study of Mus musculus with 201 samples.

Results

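Hippocampal gene expression was compared between CAST/EiJ, PWD/PhJ and PWK/PhJ mice and inbred strains of mostly domesticus descent. The 5 arrays of these 3 strains were taken by their strain label from 201 arrays of the survey, and they were set against 29 arrays of 14 strains, so that 34 arrays of 17 strains entered the comparison. Recombinant inbred BXD and CXB strains and F1 hybrids were left out. Each array held RNA from the hippocampi of mice of 1 strain, pooled from several mice except at WSB/EiJ replicate 1, which held 1 mouse, and hybridised to the Affymetrix M430 2.0 array. The mice were untreated, and by the labels the dissected tissue can carry varying amounts of subiculum and fimbria.

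CAST/EiJ was represented by 1 array, from a pool of 3 female mice aged 64 days. PWD/PhJ had 2 arrays, both labelled male, from pools of 2 and 3 mice aged 65 and 64 days. PWK/PhJ had 2 arrays, from a female pool aged 63 days and a male pool aged 83 days, with 2 mice in each. The domesticus strains were WSB/EiJ, with 1 array of each sex at 58 days, and 13 classical inbred strains with 27 arrays: 129S1/SvImJ, A/J, AKR/J, BALB/cByJ, BALB/cJ, C3H/HeJ, C57BL/6ByJ, C57BL/6J, DBA/2J, KK/HIJ, LG/J, NOD/LtJ and NZO/HlLtJ. Ages ran over 63 to 83 days in the CAST, PWD and PWK pools and over 51 to 96 days in the domesticus pools.

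The house mouse has several subspecies. CAST/EiJ descends from wild Mus musculus castaneus, PWD/PhJ and PWK/PhJ from wild M. m. musculus, and WSB/EiJ from wild M. m. domesticus, while the genomes of classical laboratory strains are mostly of domesticus origin. Such strains differ at many positions of their DNA, and such differences can change how much of a transcript is made. On arrays with short probes designed from a classical strain's sequence, a variant under a probe can also weaken hybridisation and lower the reading with no change in the transcript. Several probe sets often read different stretches of the same gene, so every probe set of a gene was set beside the others. Which probes carry variants was not tested here.

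Values are given in PDNN units, the log-like scale of the authors' probe-level model, on which the arrays had means near 8 and an SD of 0.698 to 0.767 in CAST, PWD and PWK and of 0.672 to 0.799 in the domesticus strains. Since no source used here gives the base of the scale, differences are not turned into folds. The mean of each strain's arrays served as 1 replicate, 3 strains against 14. A probe set was called where limma's moderated test gave an adjusted p under 0.05, and bright where its mean over the 17 strains was at least 8.

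Some arrays stood apart from their labels or from the rest. The file header of PWD/PhJ replicate 1 named PWK/PhJ and a female pool, while its label named a male PWD/PhJ pool. Its level of Xist, the RNA that coats the inactive X chromosome, was 10.17 at the first of 3 probe sets, against 9.12 to 9.96 in the female pools with agreeing headers and 7.59 to 9.06 in the other male pools. At the second it read 7.71, near PWD/PhJ replicate 2 at 7.62 and under the female CAST/EiJ and PWK/PhJ pools at 8.77 and 8.62, and at the third 8.02, against 7.83, 8.42 and 8.23 in the same arrays. Its level of the Y-linked Eif2s3y was 7.25, against 7.14 to 7.30 in the female pools and 8.17 to 9.57 in the other male pools. Its deviations from the domesticus mean over probe sets correlated at 0.74 with those of PWD/PhJ replicate 2 and at 0.34 and 0.51 with the 2 PWK/PhJ arrays, all measured from the same domesticus arrays. It was kept under its label. Without it and KK/HIJ replicate 2, whose header gave another sex than its label, 1356 probe sets were higher and 1505 lower in the main comparison below, and 2479 of its 2993 calls were made again.

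Labelled quality measures moved with the groups. The share of probe sets called present was 0.47 ± 0.015 in CAST, PWD and PWK and 0.504 ± 0.0114 in the domesticus strains (SD, n = 3 and 14), with no overlap (two-sided exact permutation p = 0.00147, the smallest that 680 splits can give, adjusted p = 0.00735 over 5 measures). The ACTB 3'/5' ratio, which grows as RNA is degraded, was 2.86 ± 0.579 in CAST, PWD and PWK and 1.82 ± 0.545 in the domesticus strains (exact permutation p = 0.0118, adjusted p = 0.0196). The labelled share of RMA outliers was 0.118 ± 0.0225 in CAST, PWD and PWK and 0.0595 ± 0.0284 in the domesticus strains (exact permutation p = 0.00735, adjusted p = 0.0184). The GAPDH 3'/5' ratio and the background level missed the threshold (exact permutation, adjusted p = 0.0901 and 0.635). The part of the present share in the results below was not tested. Calls with the ACTB ratio as a covariate and without arrays of high outlier share are given beside them.

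Of 45037 probe sets, 1483 (3.29%) were higher and 1510 (3.35%) lower in CAST, PWD and PWK than in the domesticus strains, at 1999 named genes. The direction went with brightness. Among 18678 bright probe sets, 582 (3.12%) were higher and 1082 (5.79%) lower. Among 26359 dim ones, 901 were higher and 428 lower. Brightness was judged on a mean in which domesticus strains were the majority. A probe set high in those strains alone could thus count as bright, and one high in CAST, PWD and PWK alone as dim. The split by brightness is in part set by this rule and is a description. Falls were the larger, with a median of -0.30 against a median rise of 0.18 among calls, and 272 falls against 72 rises reached 0.5. The median difference over all probe sets was 0.03.

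The count of calls depended on which strains entered. Without PWK/PhJ 1882 probe sets were called and without PWD/PhJ 1911, while without KK/HIJ 3309 were. With these 2 related strains averaged to 1, 1438 were called. In the arrays of batch 5 alone, the only batch with all 3 strains, which has no BALB/cByJ array, 395 were higher and 656 lower, and 999 of the 2993 calls were made again in the same direction. With the ACTB ratio as a covariate 2198 were higher and 1944 lower, of which 1808 were among the 2993. Without arrays of an outlier share of 0.1 or more, which leaves no CAST/EiJ and no NOD/LtJ array, 1456 were higher and 1484 lower, 1607 of them among the 2993.

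At 1811 probe sets (4.02%) all 3 strain means lay outside the range of the 14 domesticus strains on 1 side. Strain by strain, the called bright probe sets were not all shared. At 1664 of them, 553 had no domesticus strain beyond the midpoint between the mean of the 3 strains and the domesticus median, 589 had 1 and 522 had 2 or more. Since these probe sets were chosen on the same values, the shares are a description. CAST/EiJ lay on its group's side at 86.8%, PWD/PhJ at 93.4% and PWK/PhJ at 93.7%, NOD/LtJ at 16.9%, WSB/EiJ at 12.2% and A/J, the lowest, at 2.16%.

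Set singly against the 13 classical strains, which these 4 comparisons share, CAST/EiJ had 1617 probe sets higher and 1305 lower (3.59% and 2.90%). PWD/PhJ had 411 higher and 572 lower (0.913% and 1.27%). PWK/PhJ had 354 higher and 480 lower (0.786% and 1.07%). WSB/EiJ, wild-derived but of domesticus descent, had 21 higher and 40 lower (0.0466% and 0.0888%). CAST/EiJ had 1 array and the others 2, so its value was the least averaged. In batch 5 alone, with 1 array of each strain, the counts were 333 and 375 in CAST/EiJ, 140 and 220 in PWD/PhJ, 139 and 200 in PWK/PhJ, and 6 and 7 in WSB/EiJ.

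**Figure D1:**
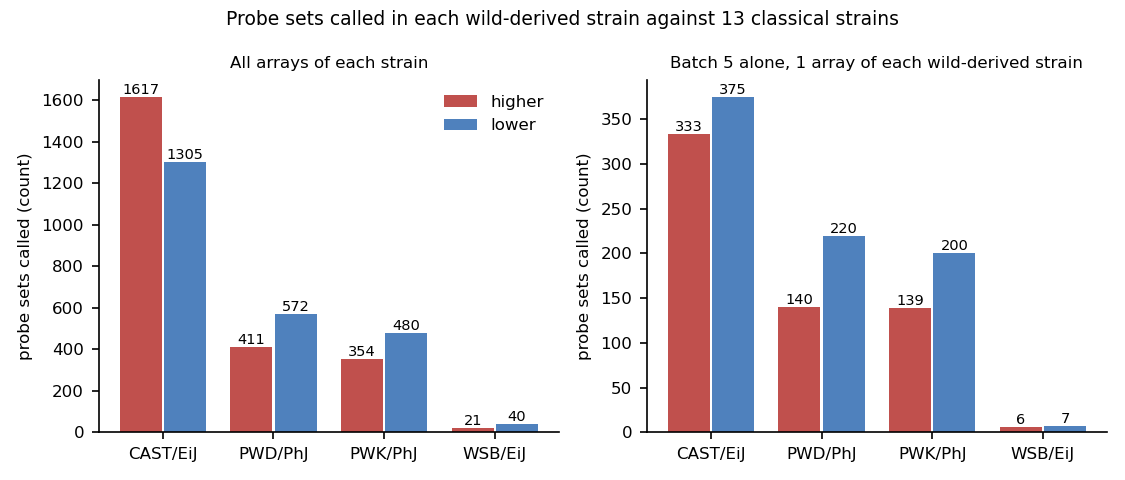
Number of probe sets higher and lower than in the 13 classical strains (vertical axis) for CAST/EiJ, PWD/PhJ, PWK/PhJ and WSB/EiJ (horizontal axis), with all arrays and with batch 5 alone. CAST/EiJ had the most in both, 1617 higher and 1305 lower with all arrays, and WSB/EiJ the fewest, 21 and 40.

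Most genes with several bright probe sets did not change at all of them. Of 4101 such genes, 755 (18.4%) had at least 1 call. Every bright probe set was higher at 15 genes (0.366%) and lower at 39 (0.951%), while 258 had at least 1 higher and 517 at least 1 lower. The brightness rule enters these counts, so their balance of falls and rises is a description. At the 648 lower calls in these genes the median difference was -0.35, the median over calls of the mean difference of the gene's other bright probe sets was -0.12, and 63.3% had no other bright probe set called lower. At the 293 higher calls the median was 0.25, that of the other probe sets was 0.06, and 77.8% had no other called higher. For falls of at least 1 unit, at 19 probe sets of 16 genes, the median was -1.10 and that of the genes' other probe sets -0.22. Since the calls were chosen for their size and the other probe sets were not, the others lie nearer 0 in part by that choice, and these medians are a description.

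**Figure D2:**
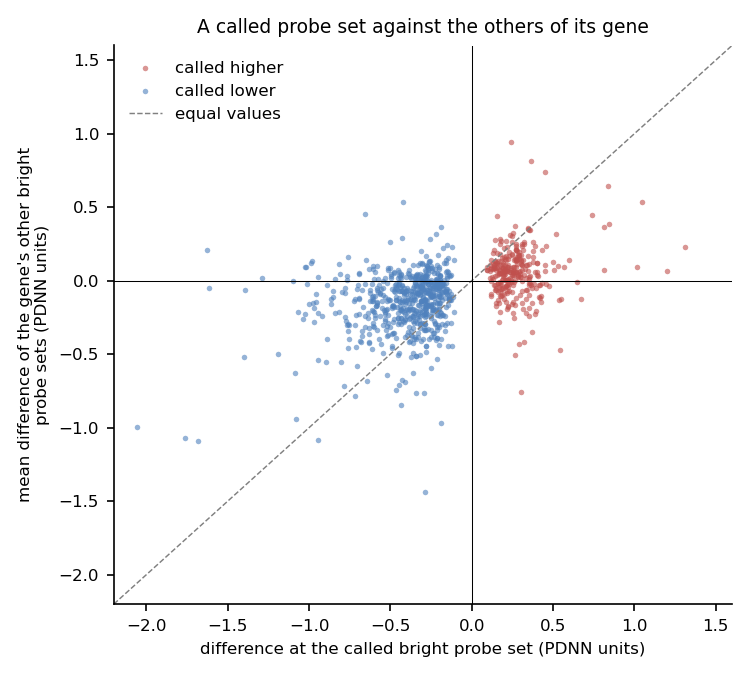
Difference of CAST, PWD and PWK from the domesticus strains at called bright probe sets (horizontal axis, PDNN units) and the mean difference of the same gene's other bright probe sets (vertical axis, PDNN units), 1 point for each call. The means of the other probe sets lie nearer 0, with a median over calls of -0.12 at lower calls and 0.06 at higher calls, and the points were chosen on the horizontal axis alone.

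The counts of genes with full agreement were small and moved with the settings. Without PWD/PhJ 5 genes were higher at all bright probe sets and without PWK/PhJ 7, and 20 and 18 were lower. In batch 5 alone 3 were higher and 10 lower. Of the 24 genes named below, 6 kept all their calls under each of 33 other settings: Yme1l1, Smoc2, Prss23, Dsp, Katnal1 and Stxbp4. Those settings include the series value table, identical to the PDNN values, and count the fit without WSB/EiJ more than once.

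Among the 12 named genes higher at all bright probe sets, the mitochondrial inner membrane protease Yme1l1 was the steadiest. Its probe set 1423361_at read 8.85 in CAST/EiJ, 9.14 and 9.07 in PWD/PhJ and 8.94 and 8.68 in PWK/PhJ, against a lowest, median and highest domesticus strain of 7.94, 8.12 and 8.30. No domesticus strain reached the lowest of the 3. The difference was 0.81 ± 0.07 (SE, limma adjusted p = 2.15e-06), and 1450954_at differed by 0.36 ± 0.07 (adjusted p = 0.0035). Both of its dim probe sets missed the call, at -0.15 and 0.01.

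Khsrp encodes a KH-domain RNA-binding protein that promotes splicing and mRNA decay. At 1452690_at the arrays read 8.39 in CAST/EiJ, 9.22 and 9.31 in PWD/PhJ and 9.28 and 9.17 in PWK/PhJ, against domesticus strains at 7.43, 7.92 and 8.22 (lowest, median, highest). All arrays were above the domesticus strain means, the CAST/EiJ array by the least. The difference was 1.04 ± 0.16 (adjusted p = 0.00059), and 1428174_x_at and 1436813_x_at were higher by 0.84 and 0.24. Its calls did not all hold without PWK/PhJ, in batch 5 alone or with the ACTB covariate.

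The other 10 were of varied function. Otub1, a deubiquitinase, was higher by 0.74 and 0.45 at its 2 bright probe sets, and Hyou1, a chaperone of the endoplasmic reticulum, by 0.35 and 0.35. The water channel Aqp11 was higher by 0.34 and 0.36, and the adhesion molecule Clmp by 0.38 and 0.27. Dusp3, a phosphatase that acts on MAP kinases, was higher by 0.25 and 0.31 at its bright probe sets and by 0.55 at a dim one. Faxc was higher by 0.27 and 0.21 at bright probe sets and lower by 0.36 at the dim 1440611_at, so its agreement covers the bright ones alone. Rwdd3, Dtymk (thymidylate kinase), Xrcc4 (a DNA end-joining factor) and Swt1 rose by 0.18 to 0.32. Of the 12, 3 kept all calls in batch 5 alone and 3 with the ACTB covariate, and Swt1 kept its calls under 11 of 33 settings.

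Among the 12 genes lower at all bright probe sets, Dsp encodes desmoplakin, a protein of desmosomes whose mRNA marks dentate granule neurons in the mouse hippocampus. At 1435494_s_at the arrays read 7.48 in CAST/EiJ, 8.16 and 8.19 in PWD/PhJ and 7.76 and 7.80 in PWK/PhJ, against domesticus strains at 8.41, 8.97 and 9.22 (lowest, median, highest). The groups did not overlap. The difference was -1.08 ± 0.17 (adjusted p = 0.000709), and 1435493_at fell by 0.94 (adjusted p = 0.000351). The dim 1427610_at was -0.21 and missed the call (adjusted p = 0.0636).

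Oxct1, the mitochondrial enzyme with which neurons use ketone bodies, had 4 bright probe sets, and all fell. Its differences were -0.80, -0.70, -0.52 and -0.43, with adjusted p-values of 0.000188 to 0.00301. At 1436750_a_at the strain means were 9.86 in CAST/EiJ, 9.13 in PWD/PhJ and 9.42 in PWK/PhJ, against 9.85, 10.25 and 10.56 in the domesticus strains (lowest, median, highest). CAST/EiJ overlapped the lowest domesticus strain, WSB/EiJ, and exceeded PWD/PhJ and PWK/PhJ by 0.58 ± 0.16 in the fit over arrays (adjusted p = 0.00895). The Oxct1 calls did not all hold in RMA or MAS5 values or in batch 5 alone.

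Smoc2, a secreted matrix protein, fell at both probe sets, by 0.69 and 0.41. At 1415935_at it read 7.96 in CAST/EiJ, 7.41 and 7.42 in PWD/PhJ and 8.30 and 8.11 in PWK/PhJ, against 8.36, 8.56 and 8.72 in the domesticus strains (lowest, median, highest). PWD/PhJ was the lowest, and it differed from PWK/PhJ by -0.83 ± 0.11 (adjusted p = 4.83e-08).

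The serine protease Prss23 fell by 0.79 and 0.72, the microtubule-severing protein Katnal1 by 0.71 and 0.45, and the syntaxin-binding protein Stxbp4 by 0.76 and 0.34. At these 6 probe sets all 3 strain means lay below every domesticus strain. Gnal, the G protein subunit of olfactory and striatal receptors, fell by 0.36 and 0.63, and Gucy1b1, the beta subunit of the nitric oxide receptor guanylate cyclase, by 0.45 and 0.49. Nfyb, a subunit of the CCAAT-binding factor, fell by 0.38 and 0.52, and Lias, which makes the lipoic acid of mitochondrial enzymes, by 0.49 and 0.36. Nhsl2 fell by 0.76 and 0.29. Zfp267 fell by 0.97 and 0.19, with WSB/EiJ at 7.67 at 1455757_at, among the 3 strains at 7.51 to 7.81. In batch 5 alone 8 of the 12 kept all their calls, and in RMA values 6.

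**Figure D3:**
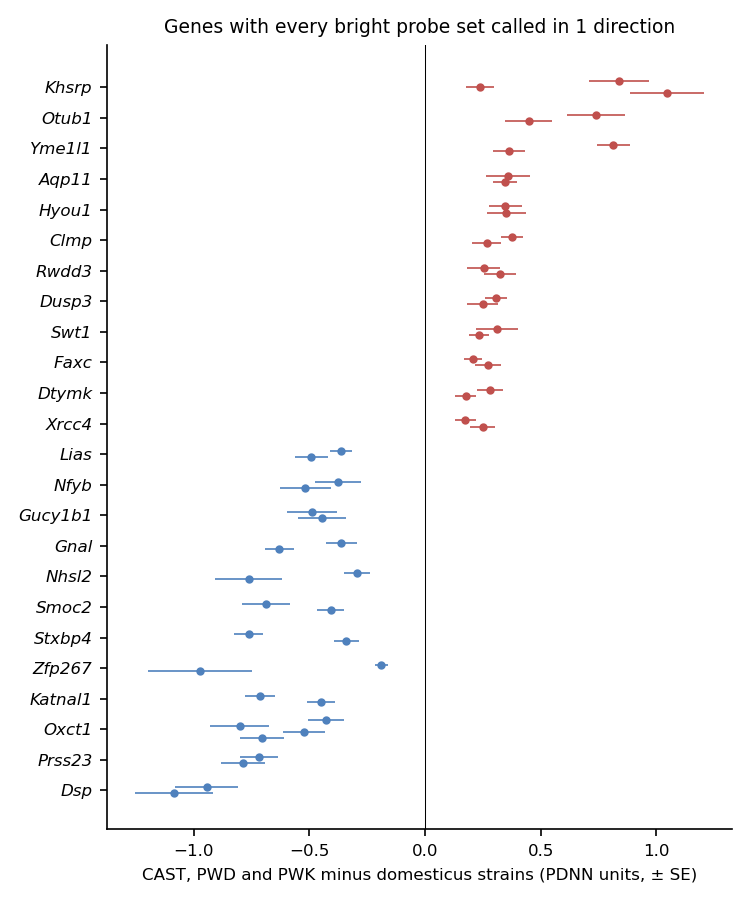
Difference of CAST, PWD and PWK from the domesticus strains (horizontal axis, PDNN units, bars are SE) at each bright probe set of the 12 genes with the largest rise and the 12 with the largest fall at all bright probe sets (rows). Khsrp and Yme1l1 reach 1.04 and 0.81, and Dsp and Zfp267 reach -1.08 and -0.97.

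At single probe sets the 8 largest falls were at Rpn1, Ncan, Taok1, Reep3, Parm1, Peg3, Lin7c and Rnf11, and in none of these genes were all bright probe sets called lower. Parm1, a mucin-like membrane protein, shows the pattern with 2 probe sets. At 1424214_at it read 7.72 in CAST/EiJ, 7.69 and 7.74 in PWD/PhJ and 7.75 and 7.62 in PWK/PhJ, against 8.95, 9.11 and 9.35 in the domesticus strains (lowest, median, highest). The gap between the groups was wider than either group's range, and the difference was -1.39 ± 0.07 (adjusted p = 1.18e-09). At 1428891_at the strain means were 9.04, 8.78 and 8.76 in CAST/EiJ, PWD/PhJ and PWK/PhJ, inside the domesticus range of 8.75 to 9.07, and the difference was -0.07 ± 0.07 (adjusted p = 0.543).

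Rpn1, ribophorin I of the complex that attaches sugar chains to new proteins, gave the largest fall. At 1439257_x_at it read 7.86 in CAST/EiJ, 8.08 and 7.76 in PWD/PhJ and 7.96 and 7.95 in PWK/PhJ, against 9.73, 10.02 and 10.16 in the domesticus strains (lowest, median, highest). The difference was -2.06 ± 0.08 (adjusted p = 1.15e-10), with -1.76 and -1.68 at 1456438_x_at and 1438943_x_at. The ending of these names marks probe sets whose probes can be shared, so they may not be separate measurements. At 1448353_x_at the difference was -0.29 (adjusted p = 0.0131), a call that was absent and of opposite sign in RMA and MAS5 values, and 1416470_a_at missed the call at -0.25 ± 0.09 (adjusted p = 0.085).

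Taok1, a kinase of stress signalling, differed by -1.62 ± 0.21 at 1424657_at (adjusted p = 0.000123), while its other bright probe sets were at -0.09, -0.03 and -0.02 and were not called. The strains read 8.14 in CAST/EiJ, 7.87 in PWD/PhJ and 8.00 in PWK/PhJ, against 8.74, 9.63 and 10.21 in the domesticus strains (lowest, median, highest). Reep3, which shapes the endoplasmic reticulum, was at -1.40 at 1424780_a_at, -1.09 at 1424781_at and -0.44 at 1424778_at, all called, while 1433976_at was at -0.04 (adjusted p = 0.723). Rnf11, a RING finger protein, fell by 1.10 at 1452058_a_at, while its 3 other bright probe sets were between -0.04 and 0.05.

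Peg3, an imprinted zinc finger gene, fell by 1.29 at 1417355_at, where AKR/J (8.47) and LG/J (8.55) lay near PWK/PhJ (8.41). Its other bright probe sets were at 0.10 and -0.06. Lin7c, a synaptic scaffold protein, fell by 1.19 at 1423322_at and at 2 further probe sets, while 1450937_at missed the call at -0.39 (adjusted p = 0.101). At 1423322_at C3H/HeJ had the lowest value, 7.39, and CAST/EiJ stood at 8.78, against 7.44 in PWD/PhJ and 7.47 in PWK/PhJ.

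The 8 largest rises at single probe sets were at Pisd-ps3, Ntrk3, Pam, Sox8, Khsrp, Mtmr7, Retsat and Slc43a2. Sox8, a transcription factor of glia and neural crest, had 1 probe set. It read 8.71 in CAST/EiJ, 8.84 and 8.81 in PWD/PhJ and 8.72 and 8.65 in PWK/PhJ, against 7.49, 7.65 and 7.82 in the domesticus strains (lowest, median, highest), a difference of 1.09 ± 0.06 (adjusted p = 1.18e-09). Its mean over the strains, 7.84, was under the bright limit. Pam, the enzyme that amidates neuropeptides, had 1 bright probe set and was higher by 1.12 ± 0.17 (adjusted p = 0.000573). Its strain means were 9.69, 9.95 and 9.96 in CAST/EiJ, PWD/PhJ and PWK/PhJ, while 129S1/SvImJ, DBA/2J and NOD/LtJ, at 9.25, 9.36 and 9.22, stood above the other domesticus strains.

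Ntrk3 encodes the neurotrophin-3 receptor. It rose by 1.20 at 1447723_at alone, where WSB/EiJ, at 9.25, lay just under the 3 strains at 9.38 to 9.66, and its other 4 bright probe sets were between -0.07 and 0.33 without a call. Retsat, an enzyme that saturates retinol, rose by 0.84 at its 1 bright probe set, with CAST/EiJ at 9.06, and NOD/LtJ, at 8.78, lay above PWD/PhJ (8.68) and PWK/PhJ (8.63). Mtmr7, a lipid phosphatase, rose by 1.01 at 1447831_s_at, where C57BL/6J and C57BL/6ByJ (8.91 and 8.93) lay within the values of the 3 strains at 8.87 to 9.11, and its other bright probe set was at 0.09 (adjusted p = 0.377). Pisd-ps3, a pseudogene with near copies, rose by 1.31 and 0.84 at 2 of 4 bright probe sets, and which copy was read is uncertain. Slc43a2, an amino-acid transporter, rose by 0.81 at the dim 1456940_at, where CAST/EiJ, at 7.36, lay among the domesticus strains and PWD/PhJ and PWK/PhJ read 8.34 and 8.61, and by 0.20 at its bright probe set (adjusted p = 0.0194).

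**Figure D4:**
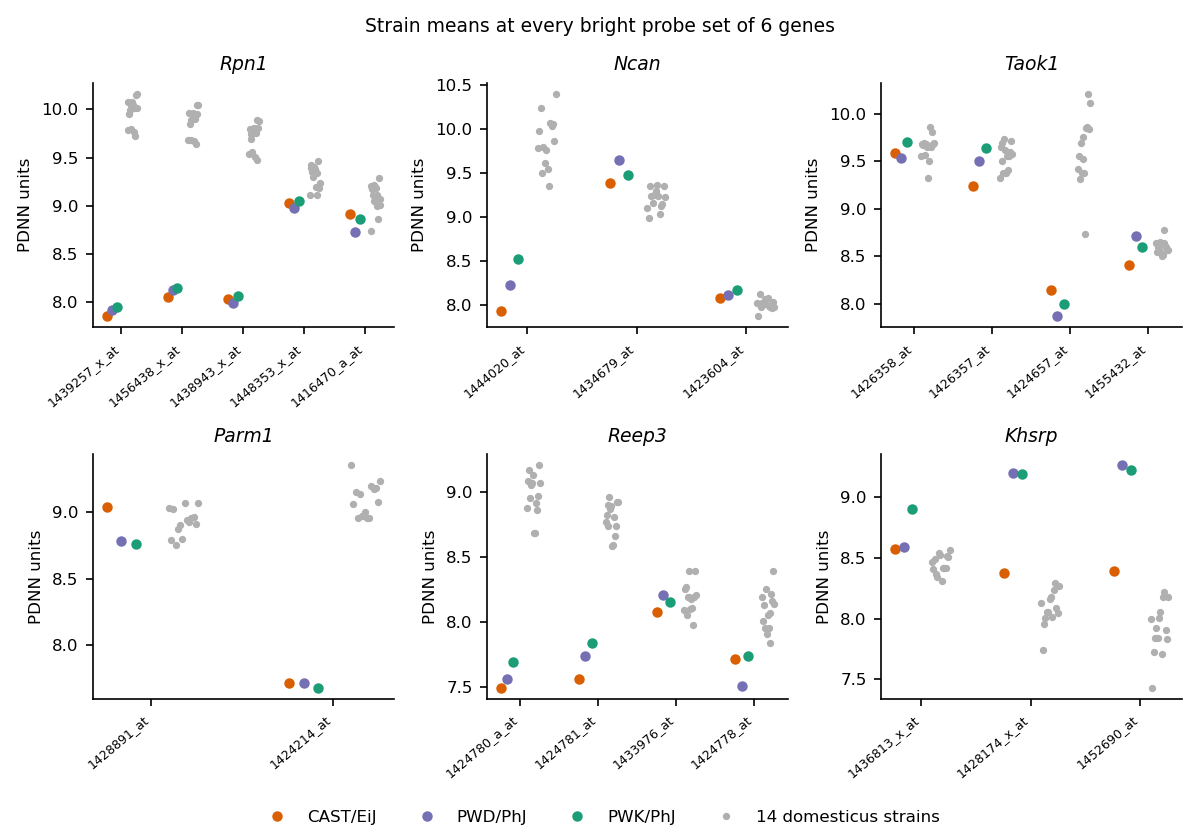
Strain means (vertical axis, PDNN units) at every bright probe set (horizontal axis) of Rpn1, Ncan, Taok1, Parm1, Reep3 and Khsrp, with CAST/EiJ, PWD/PhJ and PWK/PhJ marked apart from the 14 domesticus strains. At Parm1 the 3 strains lie at 7.68 to 7.72 at 1424214_at, against 8.95 to 9.35 in the domesticus strains, and among them at 1428891_at.

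At 20 genes bright probe sets were called in both directions. Ncan, the perineuronal proteoglycan neurocan, had the widest gap. At 1444020_at the arrays read 7.94 in CAST/EiJ, 7.76 and 8.69 in PWD/PhJ and 8.55 and 8.50 in PWK/PhJ, against 9.36, 9.83 and 10.40 in the domesticus strains (lowest, median, highest). The difference there was -1.62 ± 0.17 (adjusted p = 1.86e-05), while 1434679_at was higher by 0.30 ± 0.07 (adjusted p = 0.0183) and 1423604_at was at 0.12 without a call. Sgip1, an endocytic protein, was at -0.94 and -0.29 at 2 probe sets and at 0.54 at 1440655_at, all called, and at -0.18 at 1425181_at without a call. Atxn7l3b was at -0.65, -0.34 and 0.40, and at 0.38 without a call. Ube2v2, a cofactor of ubiquitin conjugation, was at -0.22 and 0.67, and at -0.03 without a call. Lztfl1, a regulator of ciliary transport, was at -1.02 at 1435514_at, where 129S1/SvImJ had the lowest value, 7.36, and at 0.25 at 1417170_at, with 3 others between -0.02 and 0.17 and not called. Fam102b was at -0.50 and 0.26. Where probe sets disagree, the direction of the gene's whole transcript is not given by these data.

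CAST/EiJ differed from PWD/PhJ and PWK/PhJ together at 3410 probe sets, 1809 higher (4.02%) and 1601 lower (3.55%), in a fit over the arrays of the series with sex and batch terms. This compares 1 array with 4, and the spread came from pools of other strains. With the arrays of inbred strains alone 1452 were called. All bright probe sets were higher in CAST/EiJ at 20 genes and lower at 33.

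Cct6a, a subunit of the chaperonin that folds actin and tubulin, was higher in CAST/EiJ by 1.53 ± 0.14 at 1455988_a_at (adjusted p = 8.09e-16) and by 0.39 at 1423517_at. CAST/EiJ read 10.56 at the first, against 8.94 in PWD/PhJ and 9.15 in PWK/PhJ, with domesticus strains at 10.25 to 10.71, so PWD/PhJ and PWK/PhJ were the strains outside that range. Odr4 was higher by 0.64 and 1.20, and PWD/PhJ and PWK/PhJ again lay below the domesticus range at 1426089_a_at. Minpp1, an inositol phosphate phosphatase, was higher by 0.86 and 0.92, and there CAST/EiJ lay above and PWD/PhJ and PWK/PhJ below every domesticus strain at both probe sets. Cnrip1, a partner of the cannabinoid receptor, was higher by 0.41 and 1.19, and the interferon-induced Ifi27 by 0.84 and 0.61.

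Pon2, a paraoxonase, was lower in CAST/EiJ than in PWD/PhJ and PWK/PhJ by 1.23 and 0.97 units. At 1429019_s_at CAST/EiJ read 7.58, against 8.82 in PWD/PhJ and 8.79 in PWK/PhJ, and the domesticus strains, at 8.44 to 8.91, all lay above CAST/EiJ. Nkain2, a partner of the sodium pump, was at -1.15 and -0.89, also with CAST/EiJ below every domesticus strain. Tmcc2 was at -0.75 and -0.91, and Paqr8, a membrane progestin receptor, between -0.95 and -0.36 at 4 probe sets. Cap1, a regulator of actin, was at -0.78 and -1.16, but the domesticus strains spread over 7.88 to 9.94 at 1417461_at and CAST/EiJ, at 8.96, lay within them. Without the arrays whose headers disagree, the call of 1428958_at at Paqr8 was lost (adjusted p = 0.0677).

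PWD/PhJ and PWK/PhJ, both of musculus origin, differed at 458 probe sets, 162 higher (0.360%) and 296 lower (0.657%) in PWD/PhJ. By the labels, both PWD/PhJ pools came from the animal source UTM RW and both PWK/PhJ pools from JAX. Strain and animal source thus cannot be told apart in this comparison. Leaving out any 1 of the 4 arrays brought the count to 176 to 205, leaving out the arrays with disagreeing headers brought it to 206, and inbred arrays alone gave 44. At 3 genes all bright probe sets were called, and all were higher in PWD/PhJ. Serpinh1, a collagen chaperone, was higher by 0.60 and 0.27, Foxo3, a transcription factor of stress resistance, by 0.44 and 0.33, and Synj2, a phosphoinositide phosphatase, by 0.31 and 0.46. Without the arrays with disagreeing headers 1450843_a_at of Serpinh1 (0.70, adjusted p = 0.0176) and 1427685_a_at of Synj2 (0.51, adjusted p = 0.0235) kept the call, and the other 4 probe sets lost it. With inbred arrays alone all 6 calls were lost, in MAS5 values 3 were kept, and with any 1 of the 4 arrays left out 1 or 2.

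Gene lists were read at the brightest probe set of each gene, where 328 of 9968 genes (3.29%) were higher and 503 (5.05%) lower in CAST, PWD and PWK than in the domesticus strains, with a median difference of 0.00. The brightness rule enters these counts too. Oligodendrocytes are the cells that form myelin. The differences at all 27 bright probe sets of 13 of their markers were below 0, with a median of -0.33 and 5 calls. At the brightest probe set of each gene the median was -0.31 and 1 of 13 was called (7.69%, against 8.34% over all genes). That gene was Mobp, a protein of compact myelin, at -0.95 ± 0.19 (adjusted p = 0.00605), with strain means of 9.44, 9.58 and 9.72 in CAST/EiJ, PWD/PhJ and PWK/PhJ, against 9.96, 10.64 and 10.94 in the domesticus strains (lowest, median, highest). Mobp was also lower at 1421010_at (-0.90), while 1450088_a_at (-0.65, adjusted p = 0.055) and 1436263_at (-0.07) missed the call. Its call at 1433785_at was lost in RMA and in MAS5 values.

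The markers' mean over genes was 9.30 in CAST/EiJ, 9.32 in PWD/PhJ and 9.24 in PWK/PhJ. The domesticus strains ran from 9.14 in KK/HIJ and 9.22 in DBA/2J through 9.35 in NZO/HlLtJ and 9.37 in WSB/EiJ to 9.89 in NOD/LtJ, so the groups overlapped. Over 33 settings the list's median stayed between -0.74 and -0.23, with 0 to 3 genes called. Of the 27 bright probe sets, 23 to 27 lay below 0. Some settings used RMA, MAS5 or rescaled values, which are not in PDNN units, so the sizes of these medians are not comparable. The fimbria is a myelinated tract, and its share in each dissection was not measured. In such pooled tissue, fewer cells of a type and less RNA per cell cannot be told apart.

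**Figure D5:**
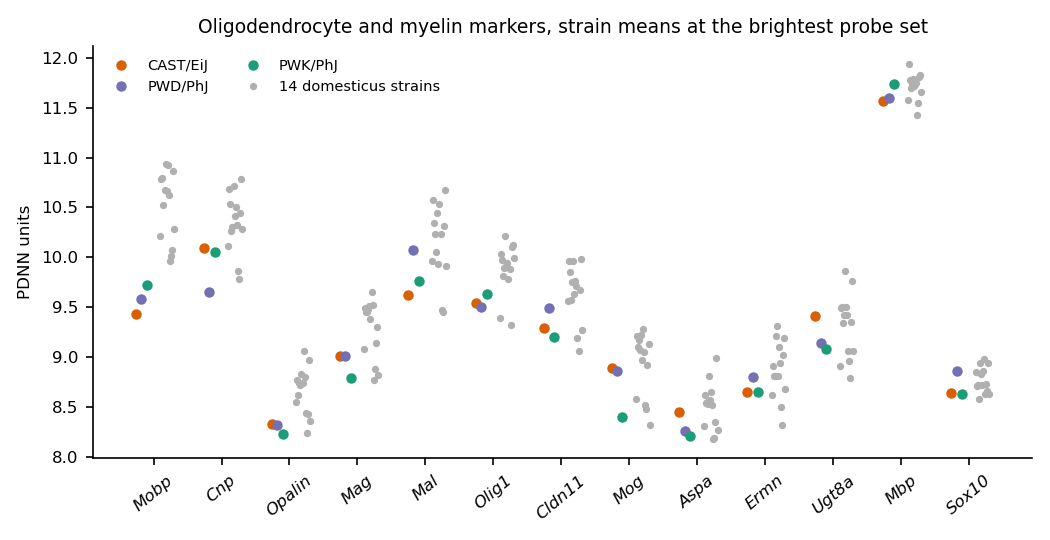
Strain means at the brightest probe set of 13 oligodendrocyte and myelin markers (horizontal axis) in PDNN units (vertical axis), with CAST/EiJ, PWD/PhJ and PWK/PhJ marked apart from the domesticus strains. Among these 13 markers, only at Mobp do all 3 strains, at 9.44 to 9.72, lie below every domesticus strain, the lowest at 9.96.

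In other cell type lists the share of genes called at the brightest probe set was 18.2% for astrocytes and 30% for dentate granule neurons. It was 20% for pyramidal neurons and 14.3% for choroid plexus, against 8.34% over all genes with a bright probe set. These lists hold few genes, so the shares are a description. Lists without a call follow below. Among 11 astrocyte markers, the glutamate transporter Slc1a3 fell by 0.96 ± 0.11 at 1426340_at (adjusted p = 3.42e-05), with strain means of 9.46, 8.88 and 8.86 in CAST/EiJ, PWD/PhJ and PWK/PhJ, all below the domesticus range of 9.78 to 10.20. It fell by 0.41 at 1426341_at, while its 3 other bright probe sets, at 0.10, -0.04 and -0.22, were not called. The water channel Aqp4 of astrocytes was also called lower at bright probe sets, at -0.48 and -0.21, but not at its brightest one. The Aqp4 calls were not followed over other settings and are not in the counts of named genes below. S100b, a calcium-binding protein, rose by 0.37 at 1434342_at (adjusted p = 0.0464), a call kept under 16 of 33 settings, while 1419383_at was at 0.13 (adjusted p = 0.369), with PWK/PhJ at 8.71 and a domesticus median of 8.87. Among 10 dentate granule neuron markers Dsp fell, and Lct (0.70, adjusted p = 0.00218) and the channel Trpc6 (0.15, adjusted p = 0.0249) rose, each at 1 bright probe set.

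Among 15 pyramidal neuron markers Bok (-0.38) fell and Spink8 (0.45) rose, the last under 16 of 33 settings. Man1a fell by 0.46 at 1417111_at, while 1417110_at missed the call at -0.11 (adjusted p = 0.651). Among 7 choroid plexus markers Kl, the hormone coreceptor klotho, fell by 0.82 (adjusted p = 0.0153), and Ttr, the defining transcript of choroid plexus, was at 0.13 (adjusted p = 0.852). The markers of microglia (10 genes), interneurons (13), endothelium (6), meninges (8) and thalamus (6) held no limma call at the brightest probe set. At an unadjusted p under 0.05 they held 1, 4, 1, 2 and 1 genes.

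In signalling and metabolic lists, Penk, which encodes the enkephalin precursor, rose by 0.65 ± 0.15 (adjusted p = 0.0153), with strain means of 9.13, 9.45 and 9.08 in CAST/EiJ, PWD/PhJ and PWK/PhJ, against 8.29, 8.59 and 9.32 in the domesticus strains (lowest, median, highest). The monoamine oxidases went apart, Maoa higher by 0.16 (adjusted p = 0.00899) and Maob lower by 0.28 (adjusted p = 0.0266). Egr1, an immediate early gene, rose by 0.38 (adjusted p = 0.0416) under 21 of 33 settings, with 1 of 8 such genes called. The glutathione transferases Gstm1 and Gstm7 were at -0.44 and 0.47. The 3 other bright probe sets of Gstm1, at -0.32, -0.16 and -0.03, were not called (adjusted p = 0.0774, 0.0895 and 0.7), and genes of this family share sequence, so their probe sets may not tell them apart. Insig1, a brake on cholesterol synthesis, rose by 0.37, 1 of 19 genes of its list, and Cacna1e, a calcium channel subunit, rose by 0.47. The shares called were 7.69% in the neuropeptide list, 25% in the monoamine list and 12.5% in the immediate early list. They were 16.7% of glutathione transferases, 5.26% of cholesterol synthesis genes and 2.86% of voltage-gated channel genes. Over all genes with a bright probe set the share was 8.34%.

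Of 35 proteasome subunits, Psma7 (-0.47), Psmb6 (-0.62) and Psmc5 (-0.44) were called lower and none higher at the brightest probe set. The other bright probe set of Psma7 was at -0.03 (adjusted p = 0.818), and Psmb6 and Psmc5 had 1 each. Of 42 ribosomal protein genes, Rps19 (-0.43) and Rps29 (-0.24) were called lower, both calls being absent and of opposite sign in RMA values, and the 2 other bright probe sets of Rps29 were at -0.14 and 0.02 without a call. Ndufaf7 was the 1 called of 80 respiratory chain genes, higher by 0.14. Of 198 Zfp zinc finger genes 6 were higher at the brightest probe set, Zfp937 (0.55), Zfp804a (0.35), Zfp946 (0.25), Zfp711 (0.21), Zfp948 (0.21) and Zfp639 (0.13). The other bright probe sets of Zfp804a and Zfp948 were at 0.01 and 0.15 without a call. Lower were 5, Zfp267 as above, Zfp560 (-0.38), Zfp667 (-0.34), Zfp286 (-0.21) and Zfp9 (-0.15). The shares called were 8.57% of proteasome, 4.76% of ribosomal protein, 1.25% of respiratory chain and 5.56% of Zfp genes. Over all genes with a bright probe set the share was 8.34%. Lists of GABA-A receptor subunits (8 genes), ionotropic glutamate receptors (13) and clock genes (17) held no limma call at the brightest probe set. Lists of stress axis genes (10) and of MHC and antigen processing genes (6) held none there either. At an unadjusted p under 0.05 these lists held 0, 4, 2, 1 and 1 genes, in the order given. These counts too have no share of all genes beside them and are a description.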

How the data were processed

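Hippocampal RNA, pooled but for 1 array, of 5 CAST/EiJ, PWD/PhJ and PWK/PhJ arrays and 29 domesticus arrays was measured on Affymetrix M430 2.0 arrays. The deposited values are PDNN scores made by the authors, 1 for each probe set and array, on a log-like scale with array means of 8.06 to 8.10. The deposited RMA and MAS5 scores, made by the authors, served as alternatives. Of the RMA columns, 4 matched the PDNN column of another array best and were left out, 3 of them all of C57BL/6J, which is absent from the RMA comparison. The series value table was identical to the PDNN scores. The number of arrays limits the precision.

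After 64 control probe sets were left out, 45037 were tested. Platform annotation gave 34945 of them 1 gene symbol, 932 several and 9160 none, and only the first are named. Of these, 34741 matched a RefSeq gene by gene ID. Values were averaged over the arrays of a strain, and 3 strain means were compared with 14 by limma 3.58.1 in R 4.3.3 (two-sided, Benjamini-Hochberg adjustment over all probe sets, adjusted p under 0.05). CAST/EiJ against PWD/PhJ and PWK/PhJ, and PWD/PhJ against PWK/PhJ, came from a limma fit over 199 columns with strain, sex and batch terms and 92 residual degrees of freedom, in which a technical duplicate was averaged and a mixed-sex array left out. Its sex term used the labels, also for PWD/PhJ replicate 1 and KK/HIJ replicate 2, whose headers give another sex. Replicates of a strain are pools (1 mouse in WSB/EiJ replicate 1), whose sharing of cages or litters is not stated.

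The text names 12 genes in each direction, ranked by median difference among those with at least 2 bright probe sets all called 1 way and with a symbol that is no clone name, the 8 largest rises and falls at single probe sets, the 6 widest gaps between probe sets called both ways, and up to 5 genes each way in the comparisons among the 3 strains. List members are named where called at the brightest probe set, and some cell type markers where called at another bright probe set. Members and lists were chosen with earlier results of these data known. Alternatives were other summaries, scalings, filters, covariates and left-out strains or arrays. The code was tested on simulated data.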

Additional observations from a re-analysis of the deposited data

Results flagged for a closer look

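At 20 of 81 named genes, and 24 of their 129 probe sets called in the comparison with the domesticus strains, CAST/EiJ differed from PWD/PhJ and PWK/PhJ by limma's test over arrays. Over all 45037 probe sets 4.02% were higher and 3.55% lower in CAST/EiJ. Since these probe sets were called with the same strains, their share is a description. This used 1 CAST/EiJ array against 4, and the cause of these differences was not tested.

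The values are CAST/EiJ minus the mean of PWD/PhJ and PWK/PhJ in PDNN units, at the called probe set of each gene with the lowest adjusted p. CAST/EiJ was the higher at Lin7c (1.348), Ube2v2 (0.717), Gstm7 (0.68), Spink8 (0.678), Nfyb (0.627), Slc1a3 (0.57), Insig1 (0.522), Oxct1 (0.491) and Psmb6 (0.487). It was also the higher at Zfp937 (0.389), Retsat (0.377), Gstm1 (0.367), Lias (0.347) and Rwdd3 (0.324). CAST/EiJ was the lower at Slc43a2 (-1.108), Khsrp (-0.859), Cacna1e (-0.567), Swt1 (-0.442), Aqp11 (-0.401) and Sgip1 (-0.384). The limma adjusted p-values ran from 9.36e-18 at Slc43a2 to 0.0413 at Lias. At these probe sets of Lin7c, Nfyb, Slc1a3, Oxct1, Psmb6, Gstm1 and Lias, all lower in the 3 strains together, PWD/PhJ and PWK/PhJ lay farther from the domesticus median than CAST/EiJ. Other called probe sets of some of these genes had another order. CAST/EiJ was the lowest at Slc1a3 1426341_at (8.79, against 9.10 in PWD/PhJ and 8.81 in PWK/PhJ) and at Lin7c 1418898_at (7.80, against 7.84 and 7.84), and lay between them at Lias 1418700_at (8.27, against 8.24 and 8.38).

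PWD/PhJ differed from PWK/PhJ at 4 of the 81 named genes and 4 of the 129 probe sets, against 0.360% higher and 0.657% lower over all probe sets. The differences were -0.833 at Smoc2 (adjusted p = 4.83e-08), -0.348 at Dusp3, -0.288 at Khsrp and 0.227 at Xrcc4 (limma adjusted p = 0.0031, 0.0424 and 0.0349). As above, strain and animal source cannot be told apart here.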

How the results depend on the processing

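The main count of 2993 calls was 1919 in RMA values, 1644 with only bright probe sets tested, 1051 in batch 5 alone and 1438 with PWD/PhJ and PWK/PhJ averaged. Leaving out 1 strain at a time gave 1882 (without PWK/PhJ) to 3309 (without KK/HIJ). The split of higher against lower calls was 922 and 1570 in MAS5 values, 536 and 1108 with only bright probe sets, and 395 and 656 in batch 5 alone. The 15 genes higher at all bright probe sets were 28 after quantile normalization, 28 without arrays of high RMA outlier share, 26 with each array scaled to an SD of 2 (chosen after seeing the data), 3 in batch 5 alone, 4 with PWD/PhJ and PWK/PhJ averaged and 2 with bright set at a mean of 9, and 5 to 18 with 1 strain left out. The 39 genes lower at all were 13 in RMA and 22 in MAS5 values, 10 in batch 5 alone, 15 with PWD/PhJ and PWK/PhJ averaged and 5 with bright set at 9, and 18 to 49 with 1 strain left out.

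CAST/EiJ against PWD/PhJ and PWK/PhJ gave 3410 calls and 1452 with inbred arrays alone. PWD/PhJ against PWK/PhJ gave 458 calls, 44 with inbred arrays alone, 206 without arrays with disagreeing headers (chosen after seeing the data), and 176 to 205 with 1 array left out. In batch 5 alone the single-strain counts were 708 in CAST/EiJ, 360 in PWD/PhJ, 339 in PWK/PhJ and 13 in WSB/EiJ. With only bright probe sets tested they were 1485, 622, 529 and 39.

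At single probe sets the direction turned at Rpn1 1448353_x_at (0.051 in RMA and 0.049 in MAS5 values), Rps19 1449243_a_at (0.009 in RMA) and Rps29 1438859_x_at (0.011 in RMA and 0.119 in MAS5). Of 129 named calls, 75 held in batch 5 alone, 90 with the ACTB covariate, 92 in RMA and 103 in MAS5 values. The causes were not tested. No paired analysis was possible because replicate numbers follow the order of accession and pair no arrays between strains. With 3 strains against 14, batch, pool and labelled quality measures differ between groups.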

Other observations

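Further lists held single calls in CAST, PWD and PWK against the domesticus strains. The shares called were 12.5% of interferon response, 20% of complement, 16.7% of serine protease inhibitor and 20% of clustered protocadherin genes. Over all genes with a bright probe set the share was 8.34%. Ifitm3, a membrane protein that restricts virus entry, fell by 0.44 (limma adjusted p = 0.0115), 1 of 8 interferon response genes with a bright probe set, whose median difference was -0.19. Clu, the chaperone clusterin, fell by 0.27 at 1437689_x_at (adjusted p = 0.024), while its 3 other bright probe sets, at -0.21, -0.08 and -0.22, missed the call. Serpinf1, a secreted member of the serpin family that acts on neurons and vessels, fell by 0.33 at 1416168_at (adjusted p = 0.0217), while 1453724_a_at was at -0.09 (adjusted p = 0.43). Pcdhb7, a clustered protocadherin of neuronal recognition, rose by 0.36 (adjusted p = 0.00115), with strain means of 8.51, 8.35 and 8.32 in CAST/EiJ, PWD/PhJ and PWK/PhJ, against a domesticus range of 7.86 to 8.17. Clustered protocadherins share sequence, so neighbouring genes may be read by the same probes.

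By chromosome, the share of bright probe sets called ran from 6.74% on chromosome 7 to 13.1% on chromosome 16, and was 7.95% on the X chromosome. These shares are a description, with no test.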
